A study of Arabidopsis thaliana with 40 samples.

Results

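Ribosomal protein genes of the cytoplasmic ribosome were described in cells sorted from the quiescent center (QC) of the *Arabidopsis thaliana* root. The set was a list of 47 AGI loci that encode 20 proteins, 9 of the small subunit with 21 genes and 11 of the large subunit with 26 genes, among 32678 *Arabidopsis* loci in the expression table. Members were taken by locus identifier and not by their level, although the list was chosen with earlier results of these data known. All 47 had a row in the table. Sums and shares below refer to this list and not to the whole ribosome.

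The series held 40 samples with 1 label: WOX5:GFP plants in the Col-0 background, 5 days after stratification, with no other genotype or treatment. Per the labels, roots were digested to free their cells, and GFP-positive cells were sorted and taken through CEL-Seq. That method tags polyadenylated RNA near its 3′ end with a cell barcode and copies it by in vitro transcription. WOX5 is a homeobox gene expressed in the QC, so the sort was aimed at cells in which that promoter is active. A profile was matched to 39 of the samples, and the remaining sample was not analysed here.

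Recovered totals ran between 60463 counts (QC cell 4) and 7820633 counts (QC cell 22). From the shallowest profile to the deepest, 0 of the 32771 rows had a lower count in a deeper profile, which means that the profiles are nested. They were treated as 1 sample, no test between cells was made, and levels are those of the deepest profile unless stated otherwise. Levels are given in CPM, which is counts scaled to 1000000 counts on *Arabidopsis* loci, with exact 95% binomial intervals that cover counting error only. WOX5 had 10.6 CPM (interval 8.42 to 13.2), and the GFP row had 0 counts in every profile. For a count of 0 the exact interval in the deepest profile reaches 0.496 CPM. The smallest count above 0 was 2, so a count of 1 may be recorded as 0, and this interval does not allow for that. Other cell type markers were also present. SCR, of the QC and endodermis, had 28.5 CPM, and WOL and SHR, of the stele, had 33.5 and 4.17 CPM. GL2, of the epidermis, had 8.48 CPM, and VND7, of the xylem, had 1.21 CPM. The part of other cell types in the levels below was not tested.

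Each ribosome carries in general a single copy of these proteins, and the small subunit decodes the messenger RNA while the large subunit forms the peptide bond. In plants nearly every ribosomal protein is encoded by several genes, called paralogs, whose proteins are almost the same and which can replace each other in part. The QC is known for slow division, whereas ribosomal protein transcripts are known to be abundant in the dividing cells around it.

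The coding sequences show how far the paralogs can be told apart. Over 35 pairs of paralogs, coding identity had a median of 85.5% and ranged from 72.1% (RPS10B with AT5G52650, both encoding S10) to 99.1% (AT1G33120 with PGY2, both encoding L9). A stretch of the L10 genes is shown first because these genes carried the highest levels of the set. It covers coding positions 595 to 642 on the + strand of chromosome 1 in the TAIR10.1 build, at chr1:24840368-24840415 (RPL10C), chr1:4889340-4889387 (RPL10A) and chr1:9322742-9322789 (RPL10B). Capitals mark the bases that differ from RPL10C.
RPL10C: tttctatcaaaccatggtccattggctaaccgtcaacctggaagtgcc
RPL10A: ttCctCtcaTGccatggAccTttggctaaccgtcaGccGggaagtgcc
RPL10B: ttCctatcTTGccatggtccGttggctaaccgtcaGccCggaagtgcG
RPL10A and RPL10B each differed from RPL10C at 8 of these 48 bases, and over the whole coding sequence they were 87.7% and 88.0% identical to it.

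The last 60 coding bases of the L9 genes are shown because this pair is the closest in the set. They lie at chr1:12024443-12024502 on the + strand (PGY2), chr1:12012164-12012223 on the + strand (AT1G33120) and chr4:6463201-6463260 on the − strand (AT4G10450) in TAIR10.1. Capitals mark the bases that differ from PGY2.
PGY2: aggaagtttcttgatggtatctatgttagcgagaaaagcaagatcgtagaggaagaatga
AT1G33120: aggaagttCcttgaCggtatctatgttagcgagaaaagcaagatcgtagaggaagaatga
AT4G10450: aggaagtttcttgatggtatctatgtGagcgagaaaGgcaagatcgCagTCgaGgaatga
AT1G33120 differed from PGY2 at 2 of these 60 bases and at 5 of 585 over the coding sequence. AT4G10450 differed from PGY2 at 6 of these 60 bases. Within the last 300 bases of the transcripts, where CEL-Seq reads are expected, 42 of the 47 members had no stretch of 50 bases in common with another annotated transcript. Of the other members, 4 had more than 10% of such stretches in common with another transcript. In each case that transcript belonged to an overlapping gene on the opposite strand, and the strand setting of the counting is not given in the sources used here.

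All 47 members were above 0 in the deepest profile, against 51.3% of all loci. The median member stood at the percentile 94.0 of all loci and the lowest, AT5G59240, at 56.4. At least 100 CPM was reached by 21 of 47 members, against 5.41% of all loci. A further 22 lay between 10 and 100 CPM, and 4 were under 10 CPM. The median member had 89.3 CPM, against 12.1 CPM for the median locus above 0. The members together held 66005 counts, or 0.888% of all counts (interval 0.881 to 0.895). Over the 39 profiles this share had a low of 0.888%, a median of 0.898% and a high of 1.08%, the last in the shallowest profile.

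**Figure D1:**
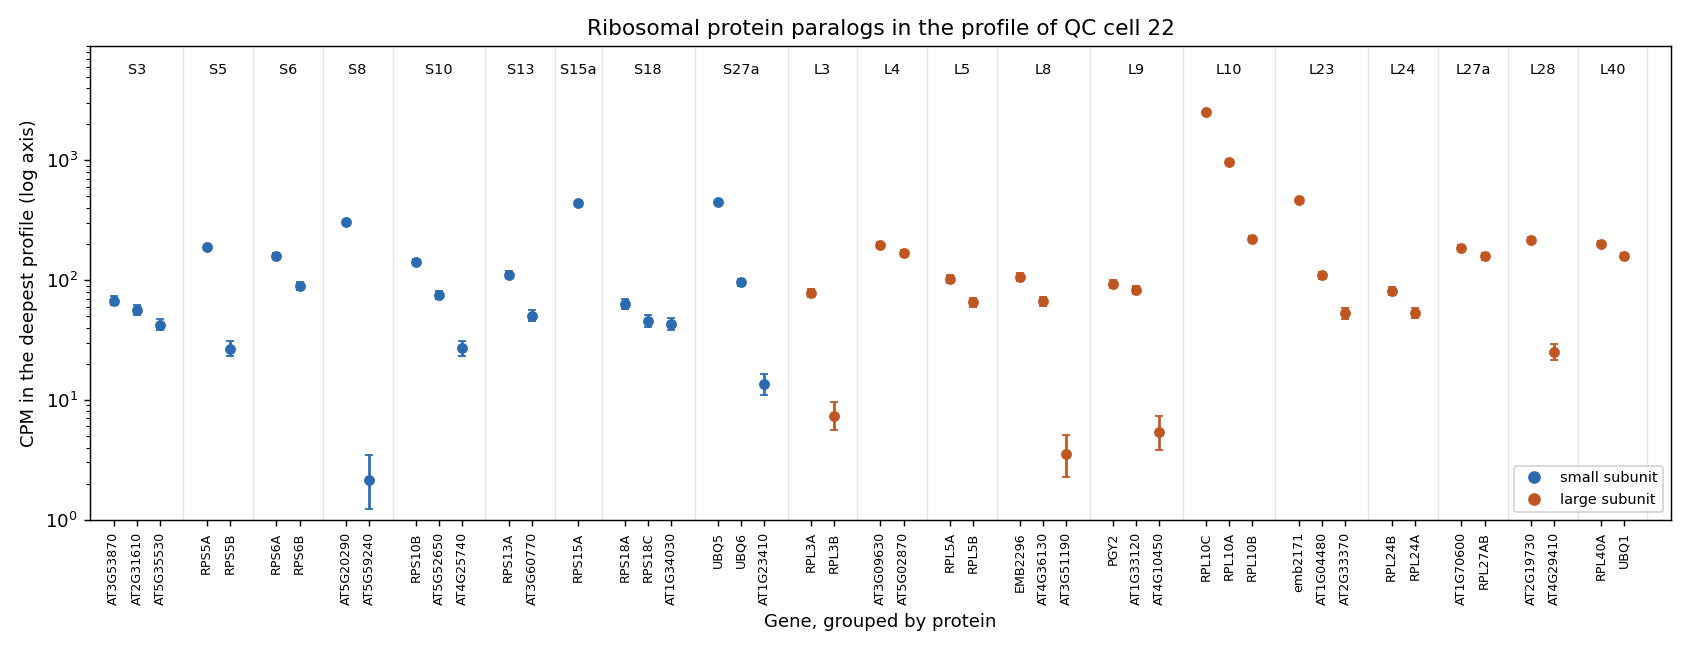
CPM of each of the 47 genes in the profile of QC cell 22 (log axis), grouped by protein and ordered by level within it, with exact 95% counting intervals as bars. The L10 genes stand highest, with RPL10C at 2529 CPM, and AT5G59240, AT3G51190, AT4G10450 and RPL3B lie under 10 CPM.

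L10 lies near the peptidyl transferase centre and is needed for the late maturation of the large subunit, as known from yeast. RPL10C (AT1G66580, chr1:24839090-24840806, + strand) had 18795 counts in the deepest profile, or 2529 CPM (interval 2493 to 2565), and ranked 24 of all loci. RPL10A (AT1G14320), known in *Arabidopsis* also as SAC52, had 962 CPM (interval 940 to 985), and RPL10B (AT1G26910) had 221 CPM (interval 211 to 232). Over the 39 profiles RPL10C had a low of 2507, a median of 2542 and a high of 3105 CPM. RPL10A ranged from 962 to 1110 CPM and RPL10B from 217 to 330 CPM over the same profiles. The 3 ranges did not overlap, and the highest value of each gene came from the shallowest profile. RPL10C held 68.1% of the L10 counts (interval 67.6 to 68.7), 2.63 times those of RPL10A (interval 2.56 to 2.70) and 11.4 times those of RPL10B (interval 10.9 to 12.0). Across the counts added between successive profiles, a set of 38 differences of 12920 to 1228427 counts, RPL10C ranged from 2032 to 3096 CPM with a median of 2543 CPM, and RPL10A from 770 to 1626 CPM. Here too the ranges did not overlap. The L10 genes held 41.8% of the counts of all members, and RPL10C alone 28.5%. The protein with the next highest sum was L23, and L10 exceeded it 5.91-fold in CPM and 3.76-fold in CPM per kb of coding length.

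Among the other large subunit proteins, L23 lies at the interface of the subunits. Its gene emb2171 (AT3G04400) had 466 CPM (interval 450 to 481), AT1G04480 had 110 CPM and AT2G33370 had 52.7 CPM. The leading gene held 74.1% of the L23 counts (interval 72.8 to 75.4) and was the highest in every profile, where its CPM had a low of 410, a median of 455 and a high of 468. L3, a core protein near the peptidyl transferase centre, had the lowest sum of all 20 proteins, with 85.3 CPM (interval 78.8 to 92.2). RPL3A had 77.9 CPM and RPL3B had 7.40 CPM (interval 5.58 to 9.63), a ratio of 10.5 (interval 7.97 to 14.2). RPL3A held 91.3% of the L3 counts. L28, a protein of the large subunit in eukaryotes, showed a like division, with 218 CPM for AT2G19730 and 25.2 CPM for AT4G29410. The ratio was 8.66 (interval 7.44 to 10.1). The 3′ end of AT4G29410 had 4.83% of its 50-base stretches in common with AT4G29400, which had 0 counts.

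L8 and L9 each had 1 gene far below the others. For L8, annotated as the ribosomal protein L2 family and known to lie near the peptidyl transferase centre, EMB2296 (AT2G18020) had 106 CPM and AT4G36130 had 66.3 CPM, while AT3G51190 had 3.50 CPM (interval 2.29 to 5.13), or 1.99% of the L8 counts. AT4G36130 overlaps AT4G36140 on the opposite strand over 98.0% of its 3′ end, and AT4G36130 had 493 counts against 119 for AT4G36140. For L9, annotated as the ribosomal protein L6 family, whose gene PGY2 is known from mutants with altered leaf polarity, PGY2 (AT1G33140) had 92.7 CPM (interval 85.9 to 99.9), AT1G33120 had 82.9 CPM (interval 76.5 to 89.7) and AT4G10450 had 5.38 CPM (interval 3.85 to 7.33). The ratio of PGY2 to AT1G33120 was 1.12 (interval 1.00 to 1.25). These genes lie near each other on chromosome 1 and are nearly identical in the coding sequences shown above, so their separate values are uncertain, although their last 300 bases had no 50-base stretch in common with another transcript.

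For the remaining large subunit proteins the leading gene held between 53.7% and 61.1% of the counts. L4 lines the exit tunnel of the nascent peptide, and its genes AT3G09630 and AT5G02870 had 196 and 169 CPM, a ratio of 1.16 (interval 1.07 to 1.25). L5 binds the 5S ribosomal RNA, and RPL5A had 103 CPM against 65.4 CPM for RPL5B, a ratio of 1.57 (interval 1.40 to 1.76). L24 is known in *Arabidopsis* from the STV1 gene (RPL24B) for its part in translation reinitiation, and RPL24B had 80.7 CPM against 53.4 CPM for RPL24A. L27a had 186 CPM for AT1G70600 and 157 CPM for RPL27AB. RPL27AB overlaps AT1G23300 on the opposite strand over 100% of its 3′ end, and AT1G23300 had 0 counts. L40 is made as a fusion with ubiquitin, and RPL40A had 202 CPM against 158 CPM for UBQ1. The order of the genes in these near-even proteins was not the same in all profiles. The deepest profile's leading gene also led or tied in 32 of 39 profiles for L4 and for L27a and in 38 for L24. It led or tied in all 39 for L5, L9 and L40, but nesting makes such counts alike. In the separate differences between successive profiles with at least 50 counts of the protein, RPL5A led or tied in 8 of 8, PGY2 in 8 of 9 with a lowest share of 37.0%, and RPL40A in 12 of 15 with a lowest share of 42.1%. AT3G09630 did so in 11 of 15, AT1G70600 in 12 of 14 and RPL24B in 6 of 7. These differences are part of the deepest profile by which the leading genes were named.

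Among small subunit proteins, S27a had the highest sum, 554 CPM (interval 537 to 571). It is also made as a fusion with ubiquitin. UBQ5 (AT3G62250) had 445 CPM (interval 430 to 460), UBQ6 had 95.4 CPM and AT1G23410 had 13.6 CPM (interval 11.1 to 16.5), so that UBQ5 held 80.3% of the S27a counts. AT1G23410 overlaps AT1G23400 on the opposite strand over 100% of its 3′ end, and AT1G23410 had 101 counts against 33 for AT1G23400. UBQ6 overlaps AT2G09785 over 34.4% of its 3′ end, and no row was found under that identifier. S15a, a protein of the small subunit body, was represented by RPS15A alone, with 442 CPM (interval 427 to 457). RPS15A had a low of 364, a median of 448 and a high of 506 CPM over the 39 profiles.

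The most uneven protein of the set was S8. AT5G20290 had 2254 counts, or 303 CPM (interval 291 to 316), and AT5G59240 had 16 counts, or 2.15 CPM (interval 1.23 to 3.50). The ratio was 141 (interval 86.6 to 247), and AT5G20290 held 99.3% of the S8 counts (interval 98.9 to 99.6). Coding identity of the pair was 73.8%, toward the low end of the set. S5 was also uneven. RPS5A (AT3G11940), whose promoter is widely used in *Arabidopsis* to drive expression in dividing cells, had 187 CPM (interval 178 to 197), and RPS5B had 26.8 CPM (interval 23.2 to 30.8). Their ratio was 7.00 (interval 6.03 to 8.16), and over the profiles RPS5A ranged from 183 to 295 CPM and RPS5B from 0 to 30.5 CPM. These ranges did not overlap, but nested profiles share counts. In the counts added between successive profiles the ranges overlapped, with a low of 39.6 CPM for RPS5A and a high of 106 CPM for RPS5B.

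S10 had RPS10B at 141 CPM, AT5G52650 at 75.2 CPM and AT4G25740 at 27.0 CPM (interval 23.4 to 31.1). S6, the protein phosphorylated by S6 kinase downstream of TOR, had RPS6A at 159 CPM (interval 150 to 168) and RPS6B at 89.3 CPM (interval 82.7 to 96.4), and RPS6A was the higher in every profile. S13 had RPS13A at 111 CPM and AT3G60770 at 50.3 CPM, with 68.7% of the counts on RPS13A (interval 66.0 to 71.4). S18 and S3 were the most even proteins with 3 genes. For S18, a protein of the small subunit head, RPS18A had 63.1 CPM, RPS18C had 45.5 CPM and AT1G34030 had 43.2 CPM. For S3, which lines the entry of the messenger RNA, AT3G53870 had 67.1 CPM, AT2G31610 had 56.6 CPM and AT5G35530 had 42.5 CPM. Within S18 the intervals of RPS18C (40.8 to 50.6) and AT1G34030 (38.6 to 48.2) overlapped.

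In 8 of the 19 proteins with more than 1 listed gene, the leading gene held over 66.7% of the counts. These were S5, S8, S13, S27a, L3, L10, L23 and L28. Just inside the limit were L10 at 68.1% and S13 at 68.7%, and just outside it was S6 at 64.0%. The interval of S13 spanned the limit. S3 and S18 were below 50%. The median leading share was 61.1%, and it was 59.1% in the 8 proteins with 3 genes and 64.0% in the 11 with 2 genes. With 2 genes the leading share cannot be below 50%, whereas with 3 genes it can, so these medians are not directly comparable. In 15 of the 19 proteins the same gene led or tied in all 39 profiles. S3 changed most often, since AT3G53870 led or tied in 27 profiles. Because the profiles are nested, this agreement between them is not repeated evidence. In the differences with at least 50 counts of the protein, the same gene led or tied in every one for 13 of the 19 proteins. The leading gene was taken from the deepest profile, which contains these differences, so part of this agreement is built in. The number of such differences ran from 2 for L3 to 36 for L10.

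**Figure D2:**
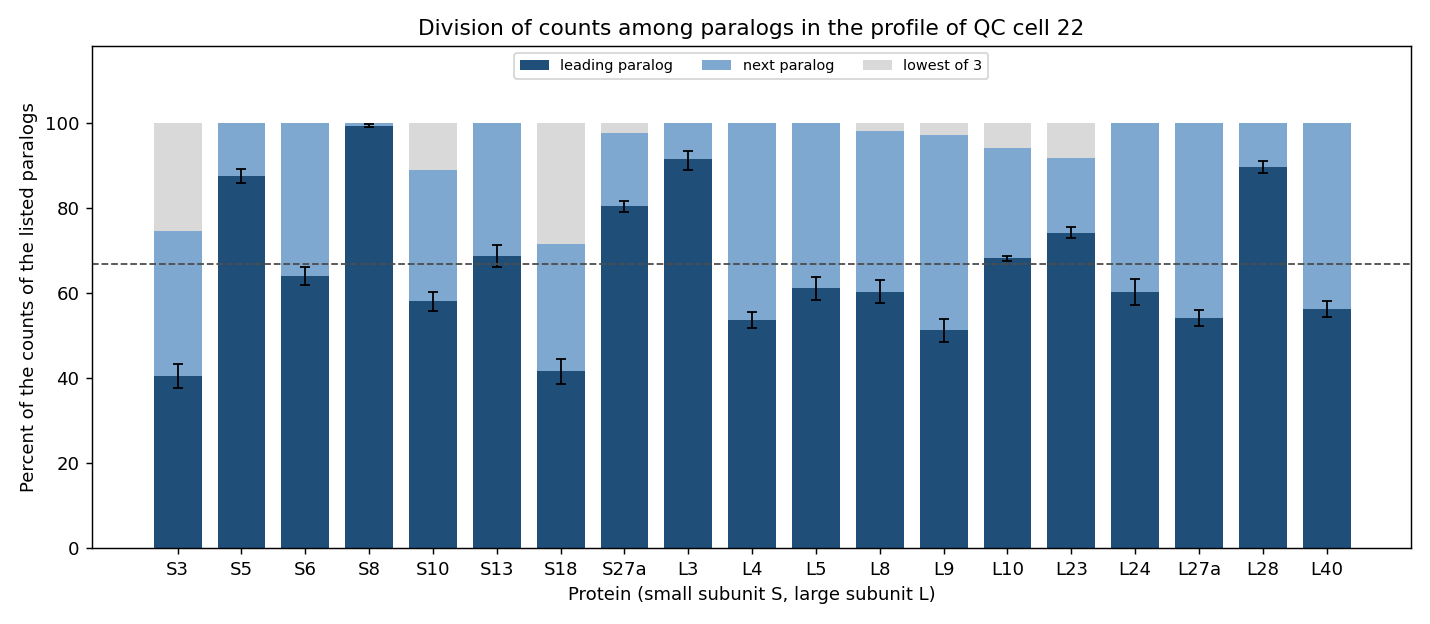
Percent of the counts of each protein's listed genes held by its leading, next and lowest gene in the profile of QC cell 22, for the 19 proteins with more than 1 gene. Error bars are exact 95% counting intervals of the leading share, and the dashed line is at 66.7%. S8 is the most uneven at 99.3% and S3 the most even at 40.4%.

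Detection across profiles set the weakest paralogs apart. Of the 47 members, 36 were above 0 in every profile, against 15.3% of all loci. By subunit these were 16 of 21 small subunit genes and 20 of 26 large subunit genes. Since the profiles are nested, a gene above 0 in the shallowest profile was above 0 in all. AT5G59240 was above 0 in 10 profiles, AT4G10450 in 15 and AT3G51190 in 27. The other 8 members with a value of 0 were so in 1 to 4 profiles only: AT4G25740 was above 0 in 35, AT5G35530, RPS5B and RPL3B in 37, and AT1G23410, AT4G36130, AT2G33370 and AT4G29410 in 38. In the counts added between successive profiles, 16 members were above 0 in each of the 38 differences, against 3.64% of all loci.

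The weakest members entered in steps. AT4G10450 was at 0 in every profile up to 2780199 counts and had 13 counts in the next, of 3102213 counts, whereas 1.65 would be expected in that difference from its level in the deepest profile. AT5G59240 entered with 5 counts in a difference where 0.206 would be expected. RPL3B reached 18.3 CPM in the profile of 171680 counts, where it had 3 counts, against 7.40 CPM in the deepest. RPL10C, at the other end of the scale, had 3154 counts in the difference with most counts, where 3107 would be expected.

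**Figure D3:**
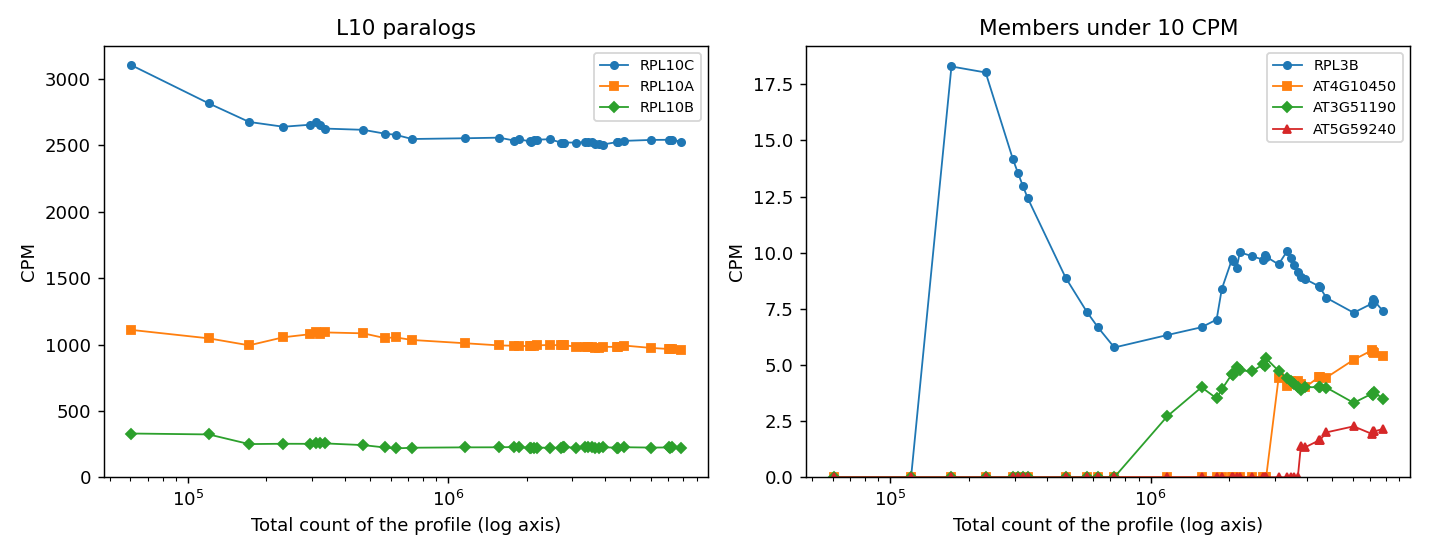
CPM against the total count of each of the 39 nested profiles (log axis) for the L10 genes on the left and for the 4 members under 10 CPM on the right. RPL10C stays between 2507 and 3105 CPM, while AT4G10450 and AT5G59240 are at 0 until 3102213 and 3780003 counts.

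Small and large subunit genes were then compared. The median small subunit gene had 67.1 CPM (range 2.15 to 445), and the median large subunit gene had 104 CPM (range 3.50 to 2529). The difference of medians of log2(CPM + 1), small minus large, was -0.63. Counting error alone gives this difference a half-width of 0.16 on the same scale, and the ranges of the genes overlapped. Per kb of coding length the medians were 119 CPM for small subunit genes and 150 CPM for large subunit genes, and the difference of log2 medians was -0.33. Added over paralogs, the median small subunit protein had 243.4 CPM (range 152 to 554) and the median large subunit protein had 243.1 CPM (range 85.3 to 3712), so that the difference seen gene by gene was not seen protein by protein. At least 100 CPM was reached by 7 of 21 small subunit genes and 14 of 26 large subunit genes. The summed level was 2485 CPM for the 21 listed small subunit genes (interval 2450 to 2521). It was 6396 CPM for the 26 listed large subunit genes (interval 6339 to 6454). Without the L10 genes, the large subunit sum was 2684 CPM and its median gene had 92.7 CPM, so that most of the difference between the sums lay in L10.

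**Figure D4:**
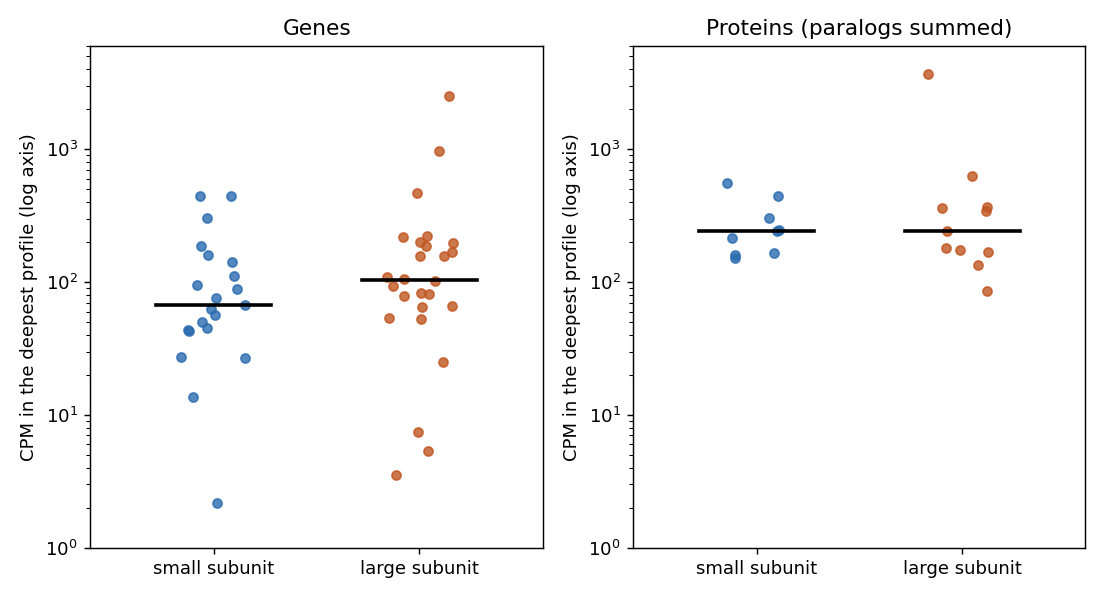
CPM in the profile of QC cell 22 (log axis) of small and large subunit genes on the left and of proteins with paralogs added on the right. Points are single genes or proteins, offset sideways only to keep them apart, and black lines are medians: 67.1 and 104 CPM for genes, 243.4 and 243.1 CPM for proteins.

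Genes that work beside these proteins were read from fixed lists. Of 11 translation elongation factor genes, which bring transfer RNA to the ribosome and move it along, 11 were above 0 and 10 had at least 100 CPM, and the median was 89.3 CPM for the members against 237 CPM for these genes. AT1G07940 was the highest at 766 CPM, but it belongs to a family of near-identical genes whose separate values are uncertain. Of 9 ribosomal stalk P protein genes, 8 were above 0 and the median was 103 CPM. AT1G01100 led with 450 CPM, and AT3G28500 had 0 counts, with an exact interval of 0 to 0.496 CPM. The limit given above for the interval of a count of 0 applies here too. The 3 RACK1 genes, which encode a scaffold on the small subunit, had a median of 27.4 CPM, led by ATARCA at 78.2 CPM. Ribosome biogenesis genes were low. All 8 were above 0, none reached 100 CPM, and the median was 5.25 CPM, with the nucleolin gene NUC-L1 the highest at 30.3 CPM. Of 5 genes of TOR and its S6 kinases, PK1 (AT3G08730), an S6 kinase gene, was the highest at 144 CPM, and the median was 64.3 CPM.

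The regions before the genes were searched for a pair of motifs known from promoters of ribosomal protein genes in plants, the telo-box (AAACCCTA) and the site II element (TGGGCC or TGGGCT), on both strands. The window ran from 250 bases before the annotated start to 50 bases after it. The telo-box was found in 26 of 47 members (55.3%), against 6.22% of 27443 nuclear protein-coding genes. Site II was found in 37 members (78.7%), against 21.7% of all. Both were found in 20 members (42.6%), against 2.20% of all, and neither in 4 members (8.51%), against 74.3% of all. By subunit the telo-box was in 11 of 21 small subunit genes and 15 of 26 large subunit genes, and site II in 15 small and 22 large subunit genes. A match says only that the letters are present.

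Leading and lowest genes were then set side by side. Among the 19 proteins, 12 leading genes and 11 lowest genes had a telo-box, and 16 leading and 14 lowest genes had a site II element. The median level was 86.1 CPM in members with a telo-box and 106 CPM in those without. For site II it was 95.4 CPM in members with the element and 54.3 CPM in the 10 without, and the ranges of both pairs of groups overlapped. The 250 bases before the start are shown for the highest genes of the set and for RPS5A, the member with most counts among those that hold both motifs there, with motif letters in capitals. They lie at chr1:24838840-24839089 (RPL10C, + strand), chr1:4887864-4888113 (RPL10A, + strand) and chr3:3779546-3779795 (RPS5A, − strand) in TAIR10.1.
RPL10C: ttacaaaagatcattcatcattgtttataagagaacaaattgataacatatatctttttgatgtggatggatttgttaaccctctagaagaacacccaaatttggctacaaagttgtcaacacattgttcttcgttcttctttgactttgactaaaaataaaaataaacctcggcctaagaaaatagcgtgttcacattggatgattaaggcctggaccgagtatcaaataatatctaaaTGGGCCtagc
RPL10A: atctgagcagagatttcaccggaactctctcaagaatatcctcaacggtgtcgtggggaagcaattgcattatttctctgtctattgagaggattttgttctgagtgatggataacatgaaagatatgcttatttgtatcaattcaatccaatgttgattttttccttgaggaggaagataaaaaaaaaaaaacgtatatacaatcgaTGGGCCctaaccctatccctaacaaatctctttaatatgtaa
RPS5A: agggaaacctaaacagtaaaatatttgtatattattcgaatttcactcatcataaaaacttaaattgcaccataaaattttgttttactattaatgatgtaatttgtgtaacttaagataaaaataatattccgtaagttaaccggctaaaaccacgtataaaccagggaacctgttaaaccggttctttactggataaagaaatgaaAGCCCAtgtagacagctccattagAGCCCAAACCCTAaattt
RPL10C and RPL10A each show 1 site II element and no telo-box here, and the telo-box of RPL10C lies in the first 50 bases of the transcript. In RPS5A the telo-box closest to the start overlaps a site II element by 1 base.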

How the data were processed

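Values were deposited by the authors as log2 of read counts normalized to library depth, plus 1. The submitters' processing notes name Bowtie2 and TAIR10. Counter, filters, strand setting and treatment of reads with several locations are not given in the sources used here for the CEL-Seq libraries. Counts were recovered as whole multiples of a single step per profile, within 7.52e-06 of a step, and the smallest count above 0 was 2. ERCC rows (91, with 4.97% of the counts of the deepest profile) and both reporter rows were left out of CPM. The 4 ribosomal RNA loci, which form 2 pairs with nearly equal counts, were kept. A gene was detected above 0. Intervals are exact Clopper-Pearson. No molecular identifiers are stated. Reads from overlapping genes may be counted at either. Recovery on 32771 simulated rows returned 100% of values. Those rows were built in the form that the recovery assumes, so they do not test whether the deposited values follow it. The members, lists and tests were chosen with earlier results of these data known, and the sequences shown were picked after levels were seen. Named genes were the leading and lowest gene of each protein and the highest gene of each list, and others are added for completeness. Loci were matched by identifier to TAIR10.1 (RefSeq) for coordinates, coding length, pairwise identity, shared 50-base stretches and motifs. Alternatives changed detection limits, the counts in the total, length scaling, the pseudocount and the profile used. Python 3.11.15, numpy, pandas, scipy and biopython were used.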

Additional observations from a re-analysis of the deposited data

Results flagged for a closer look

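The ERCC spike-in rows, which enter none of the comparisons, took up 4.97% of counts in the deepest profile, and 70 of the 91 rows were above 0. They are given because they hold counts outside the main measurement. Spike-in RNA is added on purpose, so their presence is no finding.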

How the results depend on the processing

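All 47 members had at least 10 counts, 43 had at least 10 CPM and 21 at least 100 CPM, the last against 5.41% of all loci. The shares of all loci at the limits of 10 were not computed. The median locus above 0 had 12.1 CPM, so 10 CPM is a low limit. The number above 0 in every profile was 36, against 15.3% of all loci. It was 4 after thinning to 10000 counts, against 0.995% of all loci, and 16 in differences between successive profiles, against 3.64%. The thinned profiles and the smallest difference, of 12920 counts, held fewer counts than the shallowest profile. The members' share of counts was 0.888%, and it was 0.844% with ERCC and reporter rows in the total, 1.03% without ribosomal RNA loci, 1.08% in the shallowest profile, 0.797% without ubiquitin fusions and 0.517% without the L10 genes, which was chosen after seeing the data. The medians of small and large subunit genes were 67.1 and 104 CPM. They were 119 and 150 per kb of coding length, 78.0 and 121 without ribosomal RNA loci, and 121.4 and 130 CPM in the shallowest profile. The large subunit median was 92.7 CPM without L10. The log2 difference of small minus large, -0.63, was -0.33 per kb, -0.10 in the shallowest profile and -0.46 without L10. It was 0.0016, or close to none, with paralogs added, which removes the number of genes per protein from the comparison. The median small and large subunit proteins had 353 and 309 CPM per kb of coding length. Without length scaling the protein medians were 243.4 and 243.1 CPM, and 243.4 and 212 CPM when L10 was left out. Over the differences between profiles the log2 difference between genes ranged from -1.98 to 2.56 and was above 0 in 2 of 38. The number of proteins with a leading gene over the limit was 8, and 17 with a limit of 50%. At 50% the 11 proteins with 2 genes pass unless their genes tie, so only the 8 with 3 genes could fall clearly short. The number over the 66.7% limit was 7 when proteins with overlapping or near-identical genes were left out, an alternative also chosen after seeing the data. Per kb, all 19 leading shares stayed within their intervals and 0 leading genes changed. Coding lengths differ little between paralogs, such as 669 and 633 bases for the S8 genes, so this scaling could hardly move a share. In the shallowest profile 16 of 19 shares lay outside the interval of the deepest profile and 3 leading genes changed. That interval leaves out the counting error of the shallowest profile, so this count does not show that the shares differ. The changes rest on few counts: 13 against 14 for L4, 6 against 7 for L24 and 15 against 16 for L27a. In the median over differences 6 shares lay outside. The causes of these changes were not tested. No paired analysis was possible because the series has 1 group. Members with under 30 counts, such as AT5G59240 with 16, rest on few counts. Whether depth alone sets their detection was not tested.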
